A study of Homo sapiens with 12 samples.

Results

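The genes described here make or restrain the enzymes that cut the matrix around a cell. They are 4 matrix metalloproteinases (MMP1, MMP3, MMP10 and MMP14), urokinase (PLAU) and its receptor (PLAUR), and 3 tissue inhibitors of metalloproteinases (TIMP1, TIMP2 and TIMP3). They were chosen by gene symbol as genes of invasion-related proteolysis, with earlier results of these data known. All 9 were found among the 40929 symbols of every library. The cells were MDA-MB-231, a long-established line from a human triple-negative breast cancer, labelled wild type, kept for 48 h in RPMI medium with serum before RNA sequencing. The 12 libraries were 3 each of LGCAR (5 mM glucose with 25 µM cariporide), LG (5 mM glucose without the drug), CAR (10 mM glucose with 25 µM cariporide) and NG (10 mM glucose without the drug). Whether the 3 libraries of a group were separate cultures is not stated in the labels. The p-values therefore measure the spread between libraries, which may be technical.

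Matrix metalloproteinases are zinc enzymes made as inactive precursors. The TIMP proteins bind their active sites, and TIMP2 also holds pro-MMP2 to MMP14 on the cell surface while another MMP14 molecule activates it. Urokinase, bound to its receptor, turns plasminogen into plasmin, which degrades fibrin and other matrix proteins and can activate some pro-metalloproteinases. The measurements here are of RNA, not of protein or enzyme activity.

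Library totals ran from 18069004 to 24837409 counts. Levels are given as CPM, counts scaled to library size with TMM factors, which correct for a few abundant genes taking up a library. Tests were made with edgeR's quasi-likelihood test over the 15104 genes with enough counts, and a gene was called at a Benjamini-Hochberg adjusted p under 0.05. TXNIP, a gene whose RNA follows glucose uptake, averaged 86.2 ± 7.55 CPM in LGCAR and 46.4 ± 5.07 CPM in LG, against 253 ± 9.33 CPM in CAR and 264 ± 12.5 CPM in NG (SD, n = 3 each). Ribosomal RNA took 9.32 to 11.5% of the counts in LGCAR, 7.91 to 9.06% in LG, 7.10 to 8.53% in CAR and 7.83 to 11.2% in NG. The summed CPM of 5 markers of mesenchymal-like breast cancer lines (VIM, CD44, LGALS1, CAV1 and AXL) lay between 4343 and 4428 in LGCAR, 4316 and 4414 in LG, 4127 and 4228 in CAR, and 4161 and 4223 in NG. The luminal markers PGR and ESR1 were at 0 and under 1 CPM, while KRT8, KRT18 and KRT19 of the same list averaged 443, 343 and 273 CPM in LGCAR and 496, 416 and 317 CPM in NG. Of the basal markers KRT5 was at 0 and KRT14 and KRT17 were under 1 CPM, while EGFR averaged 431 CPM in LGCAR, 382 CPM in LG, 382 CPM in CAR and 356 CPM in NG. The summed basal markers lay between 421 and 449 CPM in LGCAR, 335 and 428 CPM in LG, 320.0 and 415 CPM in CAR, and 329 and 395 CPM in NG, and their part in the results was not tested. The leukocyte markers CD163 and CD3E were at 0, and the summed fibroblast markers stayed at or below 22.1 CPM.

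Of the 9 genes, 7 passed the filter on low counts and were tested, and MMP3 and MMP10 were too low. To compare genes with each other, CPM was divided by the exon length in kb. In NG the order of these levels was PLAU (146 ± 2.63 CPM per kb), MMP14 (128 ± 2.46), TIMP2 (110 ± 3.06), TIMP1 (90.0 ± 6.52), TIMP3 (45.5 ± 0.367), PLAUR (28.8 ± 0.699) and MMP1 (9.65 ± 0.618), each n = 3. The 2 genes below the filter stood at 0.0764 ± 0.0159 CPM per kb for MMP3 and 0.00917 ± 0.0159 CPM per kb for MMP10. The order of the means was the same in CAR, but there the ranges of TIMP2 (105 ± 3.31 CPM per kb) and TIMP1 (89.9 ± 11.3 CPM per kb) overlapped. In LGCAR, TIMP2 at 128 ± 0.659 CPM per kb and MMP14 at 127 ± 2.14 CPM per kb did not differ beyond their spread. In LG the same pair stood at 130 ± 2.45 and 129 ± 2.39 CPM per kb and again did not differ beyond it.

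**Figure D1:**
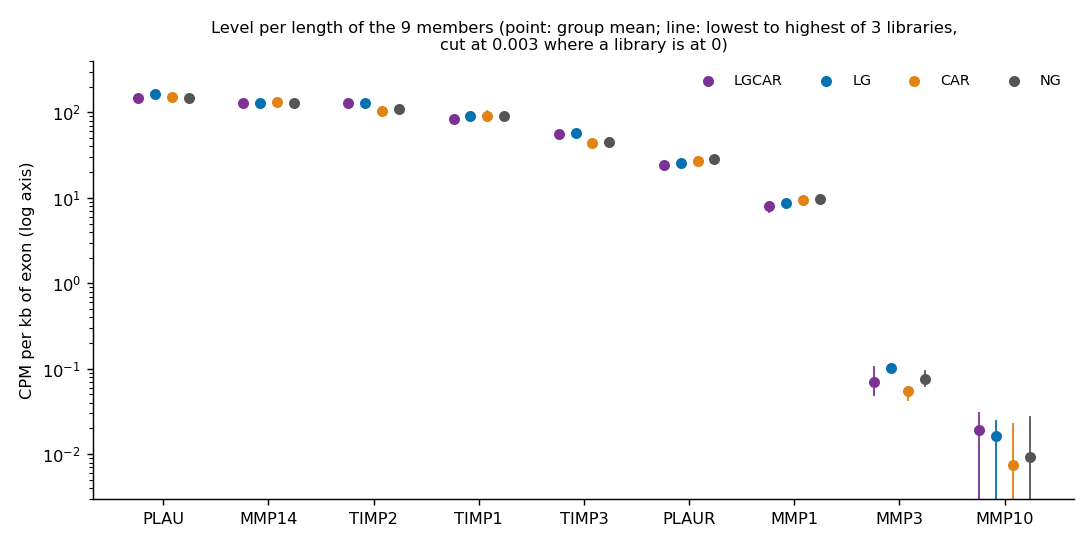
Level of each of the 9 genes in CPM per kb of exon (log axis), with the group mean as a point and the lowest to highest of 3 libraries as a line. PLAU, MMP14 and the TIMP genes lie far above MMP1, and MMP3 and MMP10 lie near the level of single counts.

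The changes over the 4 groups were small and lay mostly in the inhibitors. In LG against NG, 2 of the 7 tested genes were called, TIMP2 and TIMP3, both higher, where 1.73% of all tested genes were called. In LGCAR against CAR, which shares no library with that comparison, TIMP2 and TIMP3 were again the 2 called genes of 7, where 1.65% of all tested genes were called. In LGCAR against NG, 4 of 7 were called, where 8.75% of all tested genes were called. These were TIMP2 and TIMP3, higher as 4.63% of all tested genes were, and MMP1 and PLAUR, lower as 4.12% were. LGCAR against NG shares its NG libraries with LG against NG and its LGCAR libraries with LGCAR against CAR. No member was called for cariporide at 10 mM glucose, CAR against NG, where 0% of all tested genes were called. No member was called for cariporide at 5 mM glucose either, LGCAR against LG, where 0.00662% of all tested genes were called.

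Whether the 3 libraries of one group lay wholly apart from those of the other was read for each tested gene as well. In LG against NG, TIMP2, TIMP3 and PLAU lay above and PLAUR below, where 9.86% of all tested genes lay above and 9.51% below. In LGCAR against NG, TIMP2 and TIMP3 lay above and MMP1 and PLAUR below, where 20.7% lay above and 17.5% below. In LGCAR against CAR, TIMP2 and TIMP3 lay above and MMP1 below, where 13.4% lay above and 11.9% below. For the drug alone, PLAU lay above in CAR against NG (4.44% of all tested genes did) and below in LGCAR against LG (10.5% did).

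**Figure D2:**
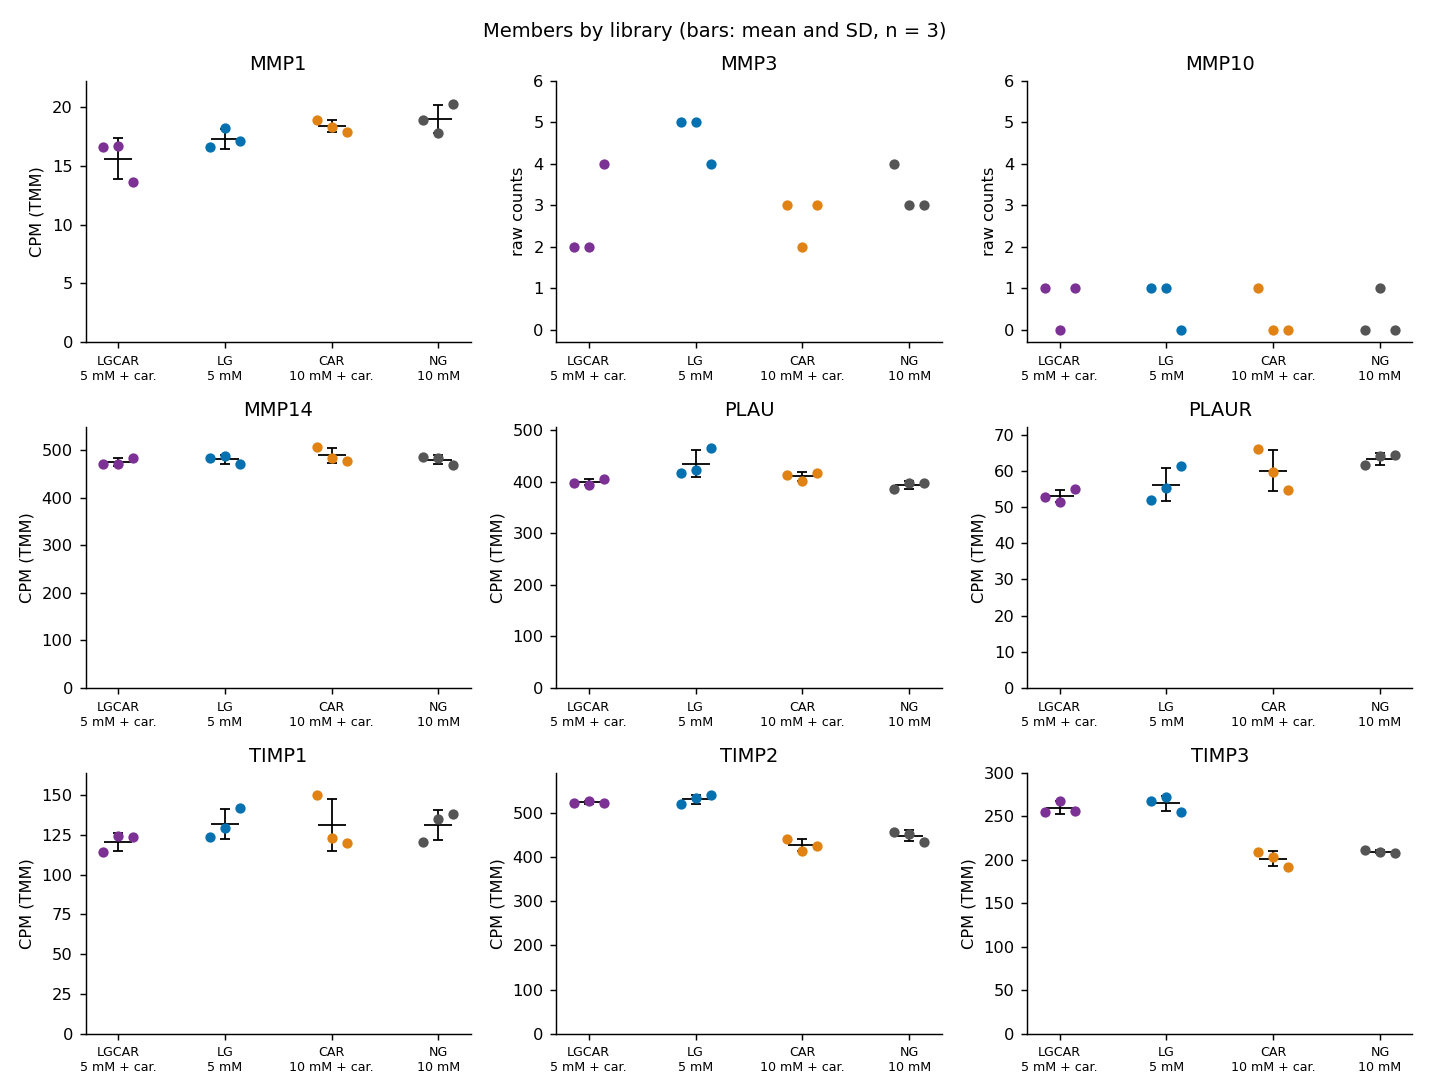
Each library of the 9 genes by group, in CPM (raw counts for MMP3 and MMP10), with horizontal bars for the mean and error bars for the SD of 3 libraries. TIMP2 and TIMP3 are higher in all 6 libraries at 5 mM glucose than in the 6 at 10 mM, while MMP14 and TIMP1 overlap across the groups.

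TIMP3 encodes the inhibitor that binds to the matrix itself and also blocks several ADAM and ADAMTS proteases. It had 254, 268 and 256 CPM in LGCAR and 268, 272 and 255 CPM in LG. It had 209, 203 and 192 CPM in CAR and 211, 209 and 208 CPM in NG. Every library at 5 mM glucose was above every library at 10 mM, with or without the drug. The log2 fold change was 0.34 in LG against NG (SE 0.0467, edgeR adjusted p = 0.00161), which is 26.5% higher. It was 0.31 in LGCAR against NG (SE 0.0468, edgeR adjusted p = 0.00234) and 0.37 in LGCAR against CAR (SE 0.0468, edgeR adjusted p = 0.00108). These 3 calls were kept with each library of the compared groups left out in turn and under each of the 12 other settings tried. TIMP3 lies at 22:32801705-32863041 on the plus strand (GRCh38.p14, as are all coordinates here), inside SYN3 on the opposite strand, which had 0 to 3 counts in a library.

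TIMP2 encodes the inhibitor that takes part in the activation of pro-MMP2 by MMP14. It had 522, 526 and 521 CPM in LGCAR and 519.6, 533 and 539 CPM in LG. It had 441, 414 and 426 CPM in CAR and 457, 453 and 433 CPM in NG. As for TIMP3, no library at 5 mM glucose fell within the range at 10 mM. The log2 fold change was 0.25 in LG against NG (SE 0.0444, edgeR adjusted p = 0.00923). It was 0.22 for LGCAR against NG (SE 0.0444, edgeR adjusted p = 0.00968) and 0.29 for LGCAR against CAR (SE 0.0444, edgeR adjusted p = 0.00390). In LG against NG the call was lost without NG replicate 2, NG replicate 3 or LG replicate 2 (edgeR adjusted p from 0.0535 to 0.0602), and in a fit to those groups alone (0.0534). In LGCAR against NG it was lost without NG replicate 3 or LGCAR replicate 1 (0.0618 and 0.0598). TIMP2 spans 17:78852977-78925387 on the minus strand, and 9.01% of its exon length lies opposite an antisense gene.

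The share of ribosomal RNA did not overlap between LGCAR and CAR, nor between LGCAR and LG. In LGCAR against LG no member was called with that share in the fit either. With that share in the fit, the log2 fold change of LGCAR against CAR was 0.29 for TIMP2 (edgeR adjusted p = 0.0569) and 0.36 for TIMP3 (edgeR adjusted p = 0.0158). The summed mesenchymal markers were higher in every library at 5 mM than in any at 10 mM, as TIMP2 and TIMP3 were. None of these 5 markers was itself called there. Relative to NG their median log2 fold change was 0.03 for LG but -0.05 for LGCAR. The LGCAR libraries set beside those of CAR gave a median of 0.03. Each median stood beside 0.01 over all genes. The part of these markers in the result was not tested. In bulk RNA a different number of cells that make a transcript and a different amount per cell cannot be told apart.

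TIMP1 encodes a secreted inhibitor of most soluble metalloproteinases. It had 114, 124 and 124 CPM in LGCAR, 124, 129 and 142 CPM in LG, 150.2, 123 and 120.1 CPM in CAR, and 120.5, 135 and 138 CPM in NG. The groups overlapped in part, and TIMP1 was not called in any comparison. Its log2 fold change was 0.00 in LG against NG (95% interval -0.17 to 0.18) and -0.12 in LGCAR against NG (95% interval -0.30 to 0.05). TIMP1 lies at X:47582436-47586789 on the plus strand, inside SYN1 on the opposite strand, which had 0 to 6 counts in a library.

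**Figure D3:**
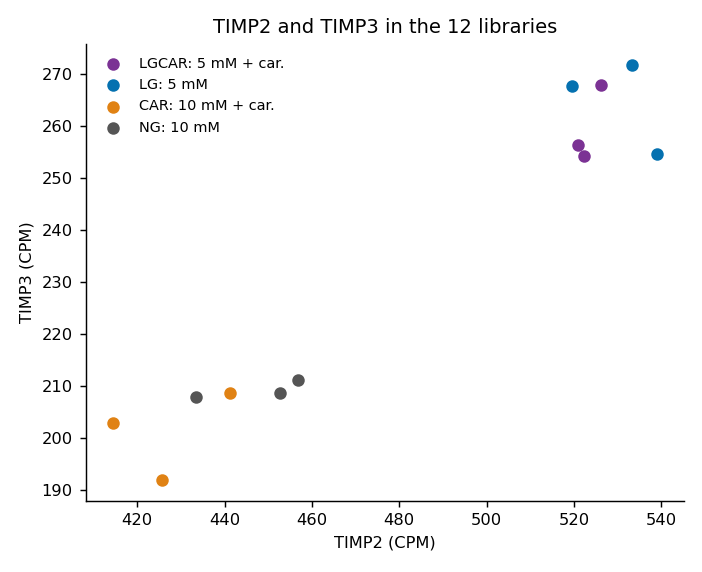
TIMP3 against TIMP2 in CPM, 1 point for each of the 12 libraries, coloured by group. The 6 libraries at 5 mM glucose lie apart from the 6 at 10 mM, and within the 5 mM libraries the levels of the pair show no common order.

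Over the 12 libraries the log2 CPM of TIMP2 and TIMP3 had a Pearson r of 0.97. These libraries form separate sets by glucose level, and within them r was -0.02 over the 6 libraries at 5 mM and 0.66 over the 6 at 10 mM. The pooled value is a description of libraries that share their glucose level in sets of 6. Among the 10820 genes averaging 5 CPM or more, TIMP3 was the third most like TIMP2 in this measure and TIMP2 the fourth most like TIMP3. Nearest to TIMP2 were NEK6, a mitotic kinase, with r = 0.97 (0.70 within 5 mM and 0.91 within 10 mM), and BCAM, a laminin receptor, with r = 0.97 (0.69 and 0.89). Among the nearest to TIMP3 was MUC5AC, a gel-forming mucin, with r = 0.97 (0.73 within 5 mM and 0.79 within 10 mM).

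The 250 bases before the start of TIMP3 and of TIMP1 are shown because these inhibitors differed in their calls, and those of PLAUR because it was called lower in LGCAR. They come from RefSeq (GRCh38.p14), whose promoter table held 6 of the 9 genes, not MMP1, MMP3 or TIMP2. Capitals mark matches on either strand to the AP-1 motif TGANTCA, to the GC box, which is spelt GGGCGG, or to the TATA motif, spelt TATAAA. On the opposite strand the GC box reads as CCGCCC. The E-box, spelt CACGTG, was searched as well. The windows are 22:32801455-32801704 (plus strand) for TIMP3, X:47582186-47582435 (plus strand) for TIMP1 and 19:43670170-43670419 (minus strand) for PLAUR.
TIMP3: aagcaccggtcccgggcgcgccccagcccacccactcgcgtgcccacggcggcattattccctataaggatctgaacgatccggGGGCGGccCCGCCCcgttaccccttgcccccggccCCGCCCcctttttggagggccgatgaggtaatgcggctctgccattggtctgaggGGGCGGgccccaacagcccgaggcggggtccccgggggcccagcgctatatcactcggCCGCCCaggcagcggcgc
TIMP1: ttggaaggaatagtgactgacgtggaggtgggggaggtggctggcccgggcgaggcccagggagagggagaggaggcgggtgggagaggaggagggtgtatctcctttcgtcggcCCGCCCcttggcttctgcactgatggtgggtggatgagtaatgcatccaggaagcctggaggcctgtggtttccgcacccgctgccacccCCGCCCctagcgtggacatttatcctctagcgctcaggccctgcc
PLAUR: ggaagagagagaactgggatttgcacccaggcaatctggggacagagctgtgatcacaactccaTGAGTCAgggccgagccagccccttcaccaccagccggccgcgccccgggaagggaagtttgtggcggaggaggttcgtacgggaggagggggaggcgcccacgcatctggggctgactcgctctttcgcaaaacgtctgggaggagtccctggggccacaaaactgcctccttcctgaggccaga

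The TIMP3 window held 5 GC boxes and was 72.4% G and C, the TIMP1 window held 2 and was 64.8% G and C, and neither held an AP-1, E-box or TATA match. A GC box is the letter pattern that SP1 and related factors can bind, and 42.6% of 35116 promoters of the same length held at least 1. The PLAUR window was 63.2% G and C and held 1 AP-1 match, TGAGTCA, from 186 to 180 bases before the start; 6.57% of the promoters held such a match. The MMP10 window held an AP-1 match (TGAATCA) and a TATA match from 31 to 26 bases before the start, a motif found in 10.7% of the promoters. The median share of G and C over all promoters was 58.0%. A match is a run of letters and was not tested as a site.

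MMP14 encodes the membrane-anchored metalloproteinase that cuts collagen at the cell surface and activates pro-MMP2. It had 470, 469 and 484 CPM in LGCAR, 483, 487 and 470 CPM in LG, 506, 483 and 477 CPM in CAR, and 485, 483 and 469 CPM in NG. The 4 groups overlapped, and MMP14 was not called in any comparison. The 95% interval of the log2 fold change was -0.11 to 0.08 in LGCAR against NG, -0.09 to 0.10 in LG against NG and -0.06 to 0.12 in CAR against NG. The gene lies at 14:22836585-22847758 on the plus strand.

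MMP1, interstitial collagenase, cleaves fibrillar collagens. It had 16.6, 16.7 and 13.6 CPM in LGCAR and 16.6, 18.3 and 17.1 CPM in LG. It had 19.0, 18.3 and 17.9 CPM in CAR and 18.9, 17.8 and 20.3 CPM in NG. LGCAR lay wholly below NG and below CAR, while LG overlapped with NG. The log2 fold change was -0.28 in LGCAR against NG (SE 0.0831, edgeR adjusted p = 0.0461), and -0.23 in LGCAR against CAR (SE 0.0826), which was not called (edgeR adjusted p = 0.157). The call in LGCAR against NG was lost without any 1 of the 6 libraries compared (edgeR adjusted p from 0.0587 to 0.198, log2 fold change from -0.34 to -0.19), with limma-voom (0.0527) and with the ribosomal RNA share in the fit (0.0686). These levels rest on 256 to 483 counts in a library.

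MMP3 and MMP10 encode stromelysins, which cut proteoglycans and laminin and can activate other pro-metalloproteinases. MMP3 had 2, 2 and 4 counts in LGCAR, 5, 5 and 4 in LG, 3, 2 and 3 in CAR, and 4, 3 and 3 in NG. The summed counts were 8 in LGCAR (95% exact Poisson interval 3.45 to 15.8), 14 in LG (7.65 to 23.5), 8 in CAR (3.45 to 15.8) and 10 in NG (4.80 to 18.4). MMP10 had 1, 0 and 1 counts in LGCAR, 1, 1 and 0 in LG, 1, 0 and 0 in CAR, and 0, 1 and 0 in NG. The intervals, which cover counting error only, overlapped, so no difference was detectable at this depth.

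MMP1 (11:102789919-102798160), MMP3 (11:102835801-102843609) and MMP10 (11:102770502-102780628) lie on the minus strand in a cluster of 9 metalloproteinase genes on chromosome 11. Summed over the 12 libraries, MMP1 had 4656 counts there, while the others had 87 (MMP8), 46 (MMP13), 40 (MMP3), 16 (MMP7), 6 (MMP10), 1 (MMP12), 1 (MMP20) and 0 (MMP27). Reads for the cluster were thus nearly all from MMP1 in these cells. MMP1 shares 7.61% of its exon length with WTAPP1 on the opposite strand, which had 0 to 2 counts in a library.

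PLAU, urokinase, was the highest of the 9 genes per length. It had 397, 394 and 405 CPM in LGCAR, 417, 423 and 465 CPM in LG, 414, 401 and 417 CPM in CAR, and 385, 397 and 398 CPM in NG. The LG libraries lay above those of both LGCAR and NG, and the CAR libraries lay above those of NG. None of these differences was called. The log2 fold change was 0.15 in LG against NG (SE 0.0483, unadjusted p = 0.00818, edgeR adjusted p = 0.150), -0.13 in LGCAR against LG (edgeR adjusted p = 0.391) and 0.06 in CAR against NG (edgeR adjusted p = 0.894). Without LG replicate 3, the highest library, the log2 fold change was 0.09 for LG against NG and -0.08 for LGCAR against LG. The change with cariporide at 5 mM minus that at 10 mM was -0.19 on the log2 scale (95% interval -0.33 to -0.04, unadjusted p = 0.0145) and failed the correction over all genes (edgeR adjusted p = 0.99991). PLAU lies at 10:73908832-73917494 on the plus strand, and 28.7% of its exon length lies opposite C10orf55, which had 11 to 37 counts in a library.

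PLAUR encodes the receptor that holds urokinase at the cell surface. It had 52.9, 51.4 and 54.9 CPM in LGCAR and 52.1, 55.3 and 61.3 CPM in LG. It had 66.1, 59.6 and 54.6 CPM in CAR and 61.5, 64.0 and 64.3 CPM in NG. LGCAR and LG both lay below NG, and CAR overlapped with each of them. The log2 fold change was -0.26 in LGCAR against NG (SE 0.0708, edgeR adjusted p = 0.0371) and -0.17 in LG against NG (SE 0.0700), which was not called (edgeR adjusted p = 0.252). The call was lost without NG replicate 2 or 3 or any 1 of the LGCAR libraries (edgeR adjusted p from 0.0792 to 0.141, log2 fold change from -0.28 to -0.24). PLAUR lies at 19:43646095-43670169 on the minus strand.

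The summed CPM of the luminal markers was lower in LGCAR than in NG, as MMP1 and PLAUR were. Their summed level was 1108 to 1203 CPM in LGCAR and 1273 to 1341 CPM in NG, with 1182 to 1249 CPM in LG and 1162 to 1314 CPM in CAR. Of the 9 luminal markers 7 were tested in LGCAR against NG, and KRT18 and KRT19 were called lower and CDH1 higher. Over all tested genes 8.75% were called. The median log2 fold change of the tested luminal markers was 0.01, beside 0.01 over all genes. The part of this in the result was not tested. The genes most like PLAUR over the 12 libraries were SCNM1, which acts in splicing, with r = 0.96 (0.95 within 5 mM and 0.89 within 10 mM), and PA2G4, a growth-regulating RNA-binding protein, with r = 0.95 (0.99 and 0.85); PA2G4 overlaps a neighbour on its strand over 17.5% of its exon length. Those most like MMP1 were CIAPIN1, which builds iron-sulfur clusters, with r = 0.93 (0.97 within 5 mM and 0.50 within 10 mM), and MIS12, a kinetochore protein, with r = 0.91 (0.90 and 0.50).

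**Figure D4:**
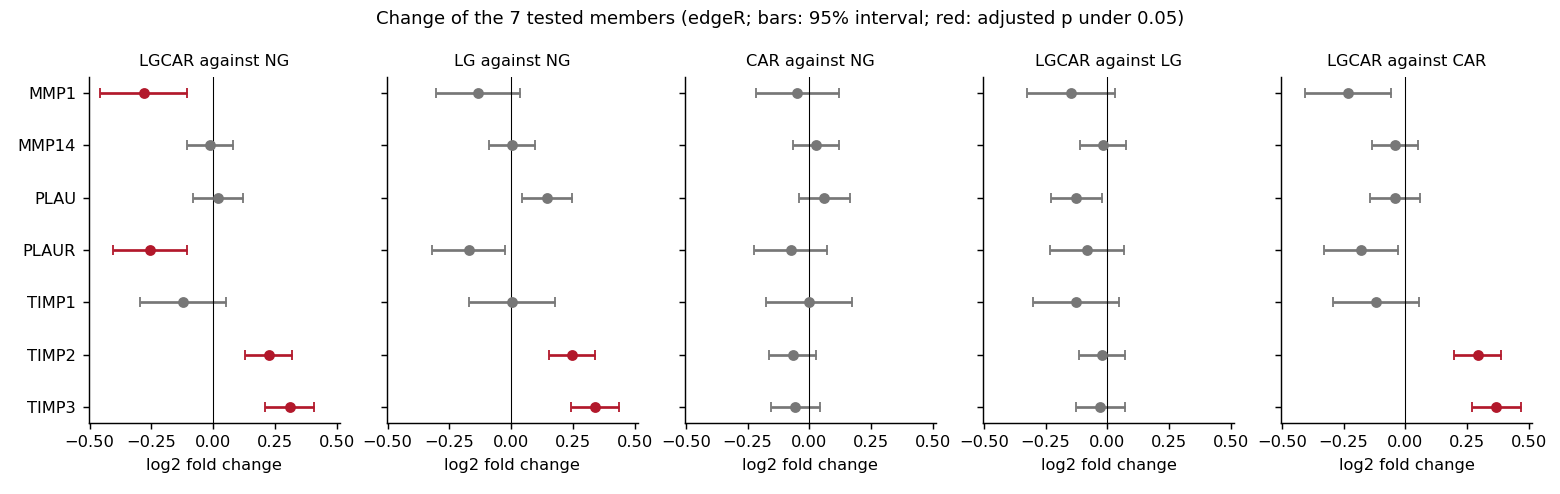
Log2 fold changes of the 7 tested genes in the 5 comparisons, with 95% intervals; red marks an edgeR adjusted p under 0.05. TIMP2 and TIMP3 are higher in the 3 comparisons that set 5 mM against 10 mM glucose, and no gene is called in the comparisons that change cariporide alone.

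Cariporide at a fixed glucose level gave no called change in these genes. In CAR against NG the log2 fold changes of the 7 tested genes ran from -0.07 for PLAUR to 0.06 for PLAU, with edgeR adjusted p from 0.894 to 0.999. Over all genes edgeR called 0 in this comparison, with 684 at an unadjusted p under 0.05, and DESeq2 called 2. In LGCAR against LG they ran from -0.15 for MMP1 to -0.02 for MMP14, and edgeR called 1 gene over all, TXNIP. At an unadjusted p under 0.05 stood no member in CAR against NG, and PLAU in LGCAR against LG, where 1801 of all tested genes (11.9%) did so. DESeq2 called 0 members in both. For TIMP3 the 95% interval was -0.16 to 0.04 in CAR against NG and -0.13 to 0.07 in LGCAR against LG. For TIMP2 these intervals were -0.16 to 0.03 and -0.11 to 0.07. The change with cariporide at 5 mM minus that at 10 mM was called for no member, where 0.00662% of all tested genes were called; it was 0.05 for TIMP2 (95% interval -0.09 to 0.18) and 0.03 for TIMP3 (-0.11 to 0.17).

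Ratios of counts within a library do not depend on the scaling between libraries. MMP14 had 0.900, 0.892 and 0.928 counts for each count of TIMP2 in LGCAR and 0.931, 0.913 and 0.872 in LG. The ratio was 1.146, 1.166 and 1.120 in CAR and 1.063, 1.067 and 1.081 in NG. The ratio was lower in every library at 5 mM, and CAR lay above NG. The difference in mean log2 ratio was -0.24 both for LG and for LGCAR against NG, -0.34 for LGCAR against CAR and 0.10 for CAR against NG. Each had an exact two-sided permutation p of 0.1, the smallest that 3 against 3 allows, and 0.2 after adjustment over the 20 ratio tests, so this design cannot pass the threshold.

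PLAU to PLAUR was 7.52, 7.67 and 7.38 in LGCAR and 8.01, 7.66 and 7.58 in LG, against 6.26, 6.73 and 7.63 in CAR and 6.26, 6.20 and 6.19 in NG. The LGCAR and LG ratios were above those of NG, and CAR spread over both. The log2 difference was 0.32 for LG against NG and 0.28 for LGCAR against NG (exact permutation p = 0.1 each, 0.2 adjusted). MMP1 to TIMP1 overlapped between all groups.

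**Figure D5:**
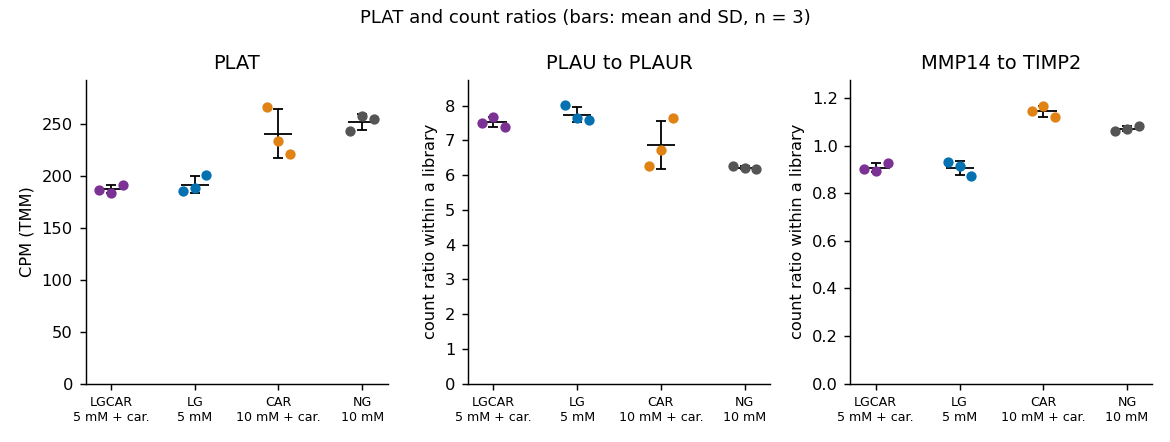
PLAT in CPM, and the count ratios of PLAU to PLAUR and of MMP14 to TIMP2, for each library by group, with the mean and SD of 3 libraries. PLAT and MMP14 to TIMP2 are lower in every library at 5 mM than at 10 mM glucose, and PLAU to PLAUR is higher in LGCAR and LG than in NG.

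Other genes linked to extracellular proteolysis were read from 8 lists with 142 genes, of which 118 were tested. Besides proteases and their inhibitors, the 118 include 21 matrix substrates, 19 genes of invadopodia and partners of surface proteolysis, and 19 transcription factors. The shares called below cover all of these, not proteases and inhibitors alone. The lists too were chosen with earlier results of these data known. In LG against NG 6 were called higher and 3 lower (7.63% of those tested, beside 1.73% of all tested genes). The median log2 fold change was 0.06 beside 0.01 over all genes. In LGCAR against NG 12 were higher and 5 lower (14.4% beside 8.75%, median 0.05 beside 0.01). In LGCAR against CAR 4 were higher and 3 lower (5.93% beside 1.65%, median 0.04 beside 0.01). None was called in CAR against NG, in LGCAR against LG or in the difference between the drug's changes. Of all tested genes 0%, 0.00662% and 0.00662% were called there. FOS, a list gene, had a log2 fold change of -0.57 in LGCAR against LG (edgeR adjusted p = 0.282). It was called lower in that comparison with DESeq2 (DESeq2 adjusted p = 0.0396) and with no filter (edgeR adjusted p = 0.0120).

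Among 14 other genes of plasminogen activation 13 were tested. Of these 2 were called lower in LG against NG, 3 lower and 1 higher for LGCAR against NG, and 2 lower for LGCAR against CAR. Of all tested genes 0.728% were called lower in the first comparison, 4.12% lower and 4.63% higher in the second, and 0.675% lower in the third. PLAT (8:42174718-42207565), tissue plasminogen activator, averaged 187 ± 3.82 CPM in LGCAR and 192 ± 7.91 CPM in LG, against 241 ± 23.5 CPM in CAR and 252 ± 7.37 CPM in NG (SD, n = 3 each). It fell by 0.39 on the log2 scale in LG against NG (edgeR adjusted p = 0.00354), by 0.43 in LGCAR against NG (0.00177) and by 0.36 in LGCAR against CAR (0.00646). The last call was lost without LGCAR replicate 2 and with the ribosomal RNA share in the fit (log2 fold change -0.29, edgeR adjusted p = 0.156). Named after their values were seen, SERPINB8, a serpin, was also lower in LGCAR against NG (log2 fold change -0.46, edgeR adjusted p = 0.0120), and LRP1, an endocytic receptor, was higher (0.19, edgeR adjusted p = 0.0483). For genes named in this way, here and below, whether a call held with a library left out or under another setting is not reported. PLG, which encodes plasminogen, had 8 counts over the 12 libraries.

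Of 19 other matrix metalloproteinases 6 were tested and none was called; MMP15, the most abundant of them in CPM, averaged 13.9 ± 1.11 CPM in LGCAR and 12.3 ± 0.832 CPM in NG. The gelatinases were barely detected, with at most 8 counts of MMP2 and 9 of MMP9 in a library. Of 7 other inhibitors 5 were tested and none was called; RECK, a membrane-anchored inhibitor, averaged 12.8 ± 0.322 CPM in LGCAR and 12.7 ± 0.360 CPM in NG.

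Among 15 tested ADAM and ADAMTS proteases, ADAMTS15, which cuts aggrecan-type proteoglycans, was higher in LG against NG (log2 fold change 0.35, edgeR adjusted p = 0.00997), in LGCAR against NG (0.46, 0.00177) and in LGCAR against CAR (0.39, 0.00646). The first of these calls was lost without NG replicate 3, LG replicate 1 or LG replicate 2, and the last with the ribosomal RNA share in the fit. ADAM10, a sheddase, was higher in LGCAR against NG (0.29, edgeR adjusted p = 0.0216), as was ADAMTS9, named after its value was seen (0.28, edgeR adjusted p = 0.0339). The ADAM10 call was lost without NG replicate 2 or 3 or any 1 of the LGCAR libraries.

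Of 20 other tested matrix-degrading enzymes and inhibitors, CTSD, a lysosomal protease, was higher in LG against NG (log2 fold change 0.35, edgeR adjusted p = 0.00426), in LGCAR against NG (0.24, 0.0216) and LGCAR against CAR (0.30, 0.0122). It is uncertain, since 54.9% of its exon length is shared with other annotated genes on its strand. The LGCAR against NG call of CTSD was lost without NG replicate 2 or 3 or any 1 of the LGCAR libraries, and the LGCAR against CAR call without CAR replicate 3 or any 1 of the LGCAR libraries and with the ribosomal RNA share in the fit. HPSE, heparanase, was called higher in LGCAR against CAR (0.28, edgeR adjusted p = 0.0490), a call that no longer held when any 1 of the 6 compared libraries was left out (adjusted p from 0.0908 to 0.195 in edgeR). It was also lost with every other scaling tried, with no filter, with DESeq2, with limma-voom, in a fit to the compared groups alone, without the ribosomal RNA genes and with the ribosomal RNA share in the fit (adjusted p from 0.0514 to 0.428). Among 19 tested genes of invadopodia, the protrusions that carry MMP14, FSCN1, an actin-bundling protein, was higher in LGCAR against NG (0.35, edgeR adjusted p = 0.0131; lost without NG replicate 3 or LGCAR replicate 1).

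Matrix substrates of these proteases were called in the higher direction alone. Of 21 tested, 2 were higher for LG against NG, 4 for LGCAR against NG and 1 for LGCAR against CAR. The numbers called higher among all 15104 tested genes were 151, 700 and 147 in the same order. HSPG2, which encodes perlecan, had log2 fold changes of 0.41 (edgeR adjusted p = 0.0278), 0.51 (0.00582) and 0.39 (0.0372) in these comparisons, with 11.6% of its exon length opposite another gene. LAMA3, a laminin chain, had 0.25 (0.0452) in LG against NG and 0.34 (0.00558) in LGCAR against NG. The LG calls of HSPG2 and LAMA3 were lost without NG replicate 2 or 3 or LG replicate 1 or 2, that of LAMA3 also without NG replicate 1, and the LGCAR against CAR call of HSPG2 without CAR replicate 1 or 3 or any 1 of the LGCAR libraries. The HSPG2 call in LGCAR against CAR was also lost with no filter (adjusted p = 0.0739) and with the ribosomal RNA share in the fit. Its LG call was also lost with no filter (adjusted p = 0.0544) and in a fit to the compared groups alone (0.0715). The LG call of LAMA3 was also lost with RLE size factors (adjusted p = 0.0527), with limma-voom (0.0563), with edgeR without robust fitting (0.0554) and in a fit to the compared groups alone (0.0830). The other substrates called in LGCAR against NG, named after their values were seen, were TNC (0.31, edgeR adjusted p = 0.0285) and LAMC1 (0.25, edgeR adjusted p = 0.0185).

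Of 19 tested transcription factors with known sites in protease promoters, FOS, a part of AP-1, averaged 6.34 ± 0.391 CPM in LGCAR and 9.43 ± 0.571 CPM in LG, against 14.3 ± 1.85 CPM in CAR and 17.0 CPM in NG, where its libraries had 15.2 to 19.2 CPM. Its log2 fold change was -0.85 in LG against NG (edgeR adjusted p = 0.000582), -1.42 in LGCAR against NG (4.38e-06) and -1.17 in LGCAR against CAR (4.68e-05). FOSB, another AP-1 part, fell by 1.11 on the log2 scale in LGCAR against NG (edgeR adjusted p = 0.00514), and ETS2 was 0.28 higher in LG against NG (edgeR adjusted p = 0.00895). Named after their values were seen, FOSL2 was higher in LG against NG (0.22, edgeR adjusted p = 0.0388) and in LGCAR against NG (0.17, 0.0461), and RUNX2 in LGCAR against NG (0.30, 0.0279).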

How the data were processed

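The authors deposited 1 table of raw counts per gene for each of the 12 libraries. Per the labels' protocols, Trizol was used for total RNA and a directional NEBNext Ultra II kit for the libraries. The submitters' processing notes name STAR, Salmon, fastp, GATK and GRCh38. Which tool made the counts, its version and whether strand was used: not given in the sources used here. TMM-scaled CPM and fold changes on the log2 scale were computed from the counts with edgeR 4.0.16 in R 4.3.3. Genes passing filterByExpr (15104) entered 1 robust quasi-likelihood fit of all 12 libraries with a mean for each group, and p-values were adjusted by Benjamini-Hochberg within each comparison. SE is the log2 fold change over the root of F. Fold changes of 1.25, 1.5, 2 and 4 were put into simulated counts of 15104 genes for LG against NG. They were recovered for 20, 64, 88 and 96% of the changed genes, with 6.29% of calls false. The changed genes were drawn at random from all tested genes, so these shares do not describe abundant genes such as TIMP2 and TIMP3. The called changes of TIMP2 (1.17 to 1.22-fold), MMP1 and PLAUR were under 1.25-fold, and those of TIMP3 (1.24 to 1.29-fold) lay around it. Called changes of the list genes lay on both sides of it.

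The members and lists were chosen with earlier results of these data known. Beside all members and TXNIP, the text names up to 2 called genes with the smallest p of each list in each comparison, and the 2 genes with the highest Pearson r for each called member; other names are said to be chosen after their values were seen. Results for some genes that this rule names are left out of this text. Ratios were compared by exact permutation of libraries (scipy 1.17.1, Python 3.11.15), and MMP3 and MMP10 have exact Poisson intervals, which cover counting error only. Exon lengths and overlaps are from GENCODE 29, coordinates and promoters from RefSeq. Alternatives were other scalings and filters, DESeq2 1.42.0, limma-voom (limma 3.58.1), edgeR without robust fitting, the compared groups alone, a replicate block, ribosomal RNA genes left out or their share as a covariate, and each library left out. Same-numbered libraries of different groups correlated between -0.11 and 0.14 in their deviations from the group means, over 0.1 in 2 of 18 pairs, so the numbers were not taken as pairs. Figures were made with matplotlib 3.10.9.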

Additional observations from a re-analysis of the deposited data

How the results depend on the processing

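No called member changed direction under any setting tried, and the calls lost for TIMP2, MMP1 and PLAUR under settings other than the replicate block stand beside their values in the report. Genes called in LG against NG numbered 261; they were 118 in a fit to those groups alone (1 member), 147 with the replicate block, 586 with the ribosomal RNA share in the fit, and 83 to 364 with 1 library left out (1 to 2 members). LGCAR against NG had 1322; it had 3542 in a fit to those groups alone, 682 with the replicate block (2 members; adjusted p = 0.0746 for MMP1 and 0.0697 for PLAUR), and 136 to 1544 with 1 library left out (1 to 3 members). LGCAR against CAR had 249; it had 391 with no filter, 419 with DESeq2, 135 with the replicate block, 18 with the ribosomal share (1 member), and 51 to 188 with 1 library left out (2 members). LGCAR against LG had 1, 15 with no filter, 20 with DESeq2 and 1 to 3 with 1 library left out; CAR against NG had 0, 2 with DESeq2 and 0 to 2; the difference between the drug's changes had 1, 2 with no filter, 5 with DESeq2, 0 with that share and 1 to 3. The replicate block changed no other member's call. The higher calls made up 57.9% in LG against NG, 53.0% for LGCAR against NG and 59.0% for LGCAR against CAR; with library totals alone the first and last were 69.5 and 26.8%, with upper quartile scaling the second and last were 42.0 and 44.4%, and with no filter 41.2 and 39.6%. The cause of these differences was not tested. MMP3 and MMP10 had too few counts to be tested.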
